A study of Mus musculus with 6 samples.

Results

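The Wnt ligands, the Frizzled receptors that bind them and the secreted antagonists that keep them apart were followed in RNA-seq libraries of the brains of 6 mice. The genes were taken by symbol from the deposited count table, namely every numbered Wnt, Fzd, Sfrp and Dkk gene together with Frzb and Wif1. This gave 39 of the 52390 genes listed, with 19 Wnt ligands, 10 Frizzled receptors and 10 secreted antagonists. The rule uses gene names only. Of these, 33 had enough counts to be tested (15 ligands, 10 receptors and 8 antagonists), and the other 6 are described by their raw counts.

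The study asked which genes change in the mouse brain when the human long noncoding RNA AP1AR-DT, named AC109347.1 in the labels, is overexpressed. The 3 AP1AR-DT OE mice had received a recombinant adeno-associated virus carrying the AP1AR-DT cDNA, and the 3 control mice an empty vector with no insert. All were male wild-type C57BL/6 mice, and the virus was injected into the medial prefrontal cortex (mPFC) at an age of 8 weeks. The human synapsin I promoter, a neuronal one, drove AP1AR-DT and the CMV promoter drove EGFP, so that AP1AR-DT was meant for the neurons that took up the virus and not for glia or vessels. The human RNA has no entry among the mouse genes of the table, and its overexpression could not be checked here.

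Wnt proteins are secreted lipid-modified ligands. They bind the cysteine-rich domain of a Frizzled receptor, and with Lrp5 or Lrp6 as co-receptor they stabilise β-catenin, which then acts with TCF/LEF factors on target genes such as Axin2. Other Wnt and Frizzled pairs act without β-catenin on cell polarity and axon guidance. Secreted Frizzled-related proteins (Sfrp1 to Sfrp5, and Frzb) and Wif1 bind the ligands themselves, whereas most Dickkopf (Dkk) proteins bind the Lrp co-receptor. In the brain, the pathway is known for patterning the cortex and hippocampus, forming vessels with a blood-brain barrier, guiding axons and shaping synapses.

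The libraries held 42061721 to 54668294 counts. The OE columns name the group but not the mouse, so these libraries are called OE A, B and C. The tissue is brain by the labels, cortical tissue in the study's methods and mPFC elsewhere in its text. All 7 markers of cortical excitatory neurons had counts in every library, but their levels differed widely and some were near 0. Slc17a7, the vesicular glutamate transporter of these neurons, lay between 3.85 normalized CPM in control 2 and 463 in OE B. Neurod6 was at 0.0803 in control 2 and 0.571 in OE C, and Neurod2 at 0.281 and 0.895, beside 23.0 and 61.2 in control 3. Camk2a lay between 1074 in control 2 and 2226 in OE B. Normalized CPM are counts put on one scale by each library's adjusted total. Control 3 stood apart in markers of other tissue. The summed level of 9 choroid plexus markers was 75.6, 66.8 and 4035 normalized CPM in control 1, 2 and 3 and 57.03, 53.03 and 73.5 in OE A, B and C, and all 9 were highest in control 3, while Kcnj13 and Slc4a5 were at 0 in some other libraries. The 7 thalamus markers summed to 210, 325 and 919 in the controls and 164, 199 and 273 in OE. The 8 hypothalamus markers summed to 6.61, 608 and 76.4 in the controls and 12.1, 11.4 and 29.0 in OE. Their sum was highest in control 2, while 3 of the 8 were highest in control 3. The part of these differences in the values below was not tested, and the calls are also given with single libraries left out.

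Of the 33 genes tested, 6 passed the thresholds that the study used for differentially expressed genes (DEGs), an unadjusted P under 0.05 with an absolute Log2FC above 0.32. Wnt6 and Wnt10b were higher, and Wnt4, Wnt11, Wnt8b and Sfrp5 were lower, in the AP1AR-DT OE mice. This is 18.2% of the genes tested, beside 12.2% of all 21844 genes tested by the same rule, with 5.1% higher and 7.15% lower in OE. With Fzd3, whose Log2FC lay just inside the threshold, 7 had an unadjusted P under 0.05, beside 3304 of all 21844 genes. After Benjamini-Hochberg adjustment over all genes, edgeR called 0 of the 33, as did DESeq2 and limma-voom, beside 0.0275% of all genes in edgeR, 0.966% in DESeq2 and 0.0183% in limma-voom. The lowest adjusted P of the family was 0.295 in edgeR and 0.0628 in DESeq2 (Wnt4), which gave none for Wnt8b and Wnt10b. The 6 genes are therefore called at the study's unadjusted thresholds only, and "rose" and "fell" are used in that sense below. Among them, Wnt8b had enough counts to be tested only through the controls. In whole tissue, fewer cells of a type and less RNA per cell cannot be told apart.

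The regions just before the start sites of these 6 genes are shown because they are the stretches where transcription factors, the TCF/LEF factors among them, can act on the genes that moved. The sequences are those of RefSeq on GRCm38.p6, in which 27 of the 39 genes matched with 30 start sites, and are written from the 5′ end on the strand of the gene. They are chr1:74771642-74771891 (plus strand) for Wnt6, chr15:98778151-98778400 (minus strand) for Wnt10b, chr4:137277385-137277488 (plus) for Wnt4, chr7:98834862-98835111 (plus) for the first start site of Wnt11, chr19:44493222-44493471 (plus) for Wnt8b and chr19:42202253-42202502 (minus) for Sfrp5. Each holds the 250 bases before the start site, except that of Wnt4, which ends after 104 bases, where the first exon begins in the GENCODE annotation. Capitals mark a GC box (GGGCGG, the core letters bound by Sp factors) or a TCF/LEF motif (CTTTGAA or CTTTGAT), each on either strand.
Wnt6: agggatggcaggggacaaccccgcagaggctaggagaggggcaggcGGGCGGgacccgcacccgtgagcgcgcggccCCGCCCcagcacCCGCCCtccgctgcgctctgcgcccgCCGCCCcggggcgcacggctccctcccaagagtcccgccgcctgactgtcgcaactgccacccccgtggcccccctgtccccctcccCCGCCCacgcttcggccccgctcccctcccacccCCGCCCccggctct
Wnt10b: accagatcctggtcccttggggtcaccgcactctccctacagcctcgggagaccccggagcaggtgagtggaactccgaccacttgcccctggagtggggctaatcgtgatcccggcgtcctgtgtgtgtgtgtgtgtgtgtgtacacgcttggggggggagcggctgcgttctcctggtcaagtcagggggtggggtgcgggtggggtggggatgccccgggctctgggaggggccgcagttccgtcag
Wnt4: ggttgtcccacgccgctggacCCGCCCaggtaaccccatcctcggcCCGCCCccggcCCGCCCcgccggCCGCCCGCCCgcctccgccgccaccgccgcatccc
Wnt11: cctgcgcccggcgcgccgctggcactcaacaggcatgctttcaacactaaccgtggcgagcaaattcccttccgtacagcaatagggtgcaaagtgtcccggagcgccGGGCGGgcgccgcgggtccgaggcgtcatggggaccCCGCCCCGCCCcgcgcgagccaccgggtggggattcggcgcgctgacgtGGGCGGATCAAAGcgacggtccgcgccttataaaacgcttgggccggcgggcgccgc
Wnt8b: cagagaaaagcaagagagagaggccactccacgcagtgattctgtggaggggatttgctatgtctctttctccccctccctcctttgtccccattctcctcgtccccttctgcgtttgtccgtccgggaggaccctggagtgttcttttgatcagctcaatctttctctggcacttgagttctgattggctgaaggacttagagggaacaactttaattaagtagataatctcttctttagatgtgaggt
Sfrp5: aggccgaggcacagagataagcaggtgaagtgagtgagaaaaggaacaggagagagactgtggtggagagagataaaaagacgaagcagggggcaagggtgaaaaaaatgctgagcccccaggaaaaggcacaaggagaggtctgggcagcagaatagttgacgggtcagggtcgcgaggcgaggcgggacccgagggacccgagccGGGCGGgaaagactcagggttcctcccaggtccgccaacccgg
Only the Wnt11 sequence holds a TCF/LEF motif among the 6 shown, at position -51 from the start site and directly after a GC box. A TCF/LEF motif was found in 3 of the 30 promoters of the family (10%) and in 7.48% of all 32851 promoters in the table. GC boxes, which may overlap one another, number 8 in the 250 bases of Wnt4 (5 of them in the stretch shown), 6 in Wnt6, 4 in this Wnt11 promoter and 1 in Sfrp5, and Wnt10b and Wnt8b have none. At least 1 GC box was present in 22 of the 30 promoters of the family (73.3%) and in 32.7% of all promoters, and the median GC content was 67.4% and 52.4%. The genes that rose and those that fell thus each included promoters with and without GC boxes. The other Wnt11 start site in the table, not shown, has neither motif before it. These matches describe the letters only.

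Of the ligands, 3 fell. Wnt4 (ENSMUSG00000036856, chr4:137277489-137299726 on GRCm38), a ligand best known from kidney and female reproductive tract development, had 10.8, 18.5 and 14.1 normalized CPM in control 1, 2 and 3 and 6.99, 9.86 and 7.96 in OE A, B and C. Every OE library lay below every control. The means were 14.5 ± 3.91 in the controls and 8.27 ± 1.46 in OE (SD, n = 3 each). The Log2FC was -0.81 ± 0.23 (SE), with an edgeR P of 0.0103, an adjusted P of 0.295 and an exact permutation P of 0.1. Its raw counts, from 371 to 924 per library, were the highest of the 5 ligands that passed.

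Wnt11 (ENSMUSG00000015957, chr7:98835112-98855195), which acts mostly without β-catenin in cell movements of the embryo, had 1.06, 2.67 and 2.08 normalized CPM in the controls and 0.622, 0.797 and 1.07 in OE. The groups overlapped only through control 1, which lay just below OE C. Wnt11 fell by a Log2FC of -1.22 ± 0.42 (edgeR P = 0.0221, adjusted P = 0.296, exact permutation P = 0.2). Of its exonic bases, 8.80% overlap Gm8398 on the opposite strand, and whether the counting used strand is not stated. Such overlaps cover 3.15% to 17.8% of the exonic bases of Wnt5a, Wnt7b, Fzd5, Fzd6 and Sfrp2.

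Wnt8b (ENSMUSG00000036961, chr19:44493472-44514273), a ligand of the developing hippocampus and dorsal midline, was near the limit of detection, with 15, 22 and 48 raw counts in the controls and 5, 0 and 8 in OE. Every OE library lay below every control, and the highest control was control 3. Wnt8b had enough counts to be tested only through the controls. A gene kept in this way is likely to lie lower in OE, so neither its P nor this separation is support for a fall. The Log2FC was -2.81 ± 1.02 (edgeR P = 0.0273, adjusted P = 0.298, exact permutation P = 0.1). The study's methods describe counts made from coverage, in which 1 read pair may give several. In the whole table, counts of 4 were more frequent (4922 values) than counts of 3 (3726) or of 5 (2263). The OE values of Wnt8b may thus stand for very few read pairs. This limit may also apply to the control counts of Wnt6 (22, 33 and 50) and Wnt10b (17, 30 and 7).

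The highest of the 3 controls was control 2 for Wnt4 and Wnt11 and control 3 for Wnt8b. Without control 2, in which the summed hypothalamus markers were high, the Log2FC of Wnt4 was -0.58 and that of Wnt11 -0.92. In that fit Wnt11 no longer passed. Without control 3, Wnt4 was at -0.81 (adjusted P = 0.399) and still passed, whereas Wnt11 at -1.16 (adjusted P = 0.403) and Wnt8b at -2.26 (adjusted P = 0.461) did not. Wnt4 alone of the 3 passed the thresholds in all 15 fits, with a Log2FC between -0.98 and -0.58.

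**Figure D1:**
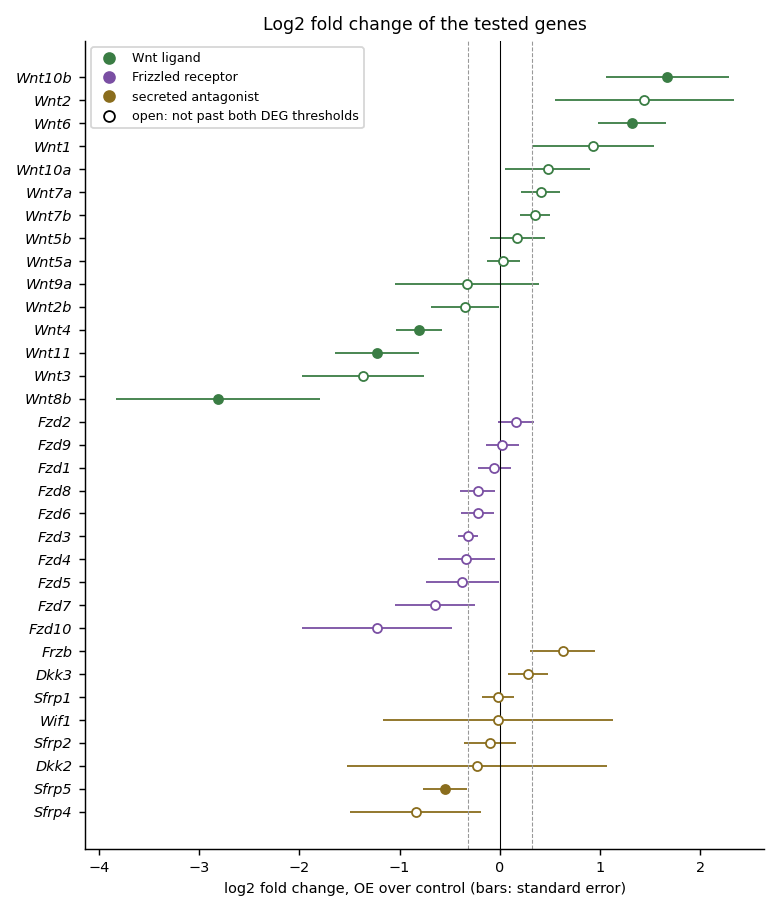
Log2 fold change (OE over control, horizontal axis) of the 33 genes tested, by class, with bars of 1 standard error. Filled points are the 6 genes past both thresholds, and dashed lines mark an absolute Log2FC of 0.32. The called ligands lie on both sides of 0, from Wnt8b at -2.81 to Wnt10b at 1.67, while 8 of 10 receptors lie below 0 without passing.

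Wnt6 and Wnt10b rose. Wnt6 (ENSMUSG00000033227, chr1:74771892-74785322), a ligand of epithelia and of the surface ectoderm of the embryo, had 0.5404, 0.662 and 1.00 normalized CPM in the controls and 1.54, 1.85 and 2.13 in OE, or 22, 33 and 50 and 82, 100 and 112 raw counts. Every OE library lay above every control. The means were 0.734 ± 0.238 and 1.84 ± 0.294 (SD, n = 3 each). The Log2FC was 1.32 ± 0.34, with an edgeR P of 0.0060, an adjusted P of 0.295 and an exact permutation P of 0.1. It passed the thresholds in all 15 fits, with a Log2FC between 1.06 and 1.62.

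Wnt10b (ENSMUSG00000022996, chr15:98770712-98778150), which signals through β-catenin and is known for holding back fat cell formation, had 0.418, 0.602 and 0.14 normalized CPM in the controls and 1.88, 0.982 and 0.838 in OE. The groups did not overlap, with control 3 lowest at 7 raw counts and OE A highest at 100. Its Log2FC was 1.67 ± 0.61 (edgeR P = 0.02904, adjusted P = 0.3004, exact permutation P = 0.1). Wnt10b did not pass without OE A (1.23), without control 1 (1.73) or without control 3 (1.28, adjusted P = 0.402). The 8 striatum markers summed to 1421, 382 and 529 normalized CPM in the controls and 2510, 882 and 971 in OE, also highest in OE A, and their part in the Wnt10b values was not tested.

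Several Wnt genes lie side by side in the genome, and their neighbours were read at the same time. Wnt6 and Wnt10a are 6.19 kb apart on chromosome 1 in the same orientation. Wnt10a, a ligand of skin and teeth that signals through β-catenin, had 1.74, 1.99 and 5.202 normalized CPM in the controls and 4.65, 3.95 and 3.87 in OE (Log2FC = 0.48 ± 0.42, edgeR adjusted P = 0.607). Controls 1 and 2 lay below every OE library, and control 3 lay above them all. Without control 3 the Log2FC of Wnt10a was 1.17 (adjusted P = 0.399), past both of the unadjusted thresholds.

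Wnt10b and Wnt1 lie 11.7 kb apart on chromosome 15 in opposite directions. Wnt1, the founding member of the family, known for patterning the midbrain, had 0.565, 0.421 and 0.3801 normalized CPM in the controls and 0.772, 0.334 and 1.504 in OE (Log2FC = 0.93 ± 0.60, edgeR adjusted P = 0.478). OE A and C lay above the controls and OE B below them, so that Wnt1 did not share the order of Wnt10b, in which OE B was second. The other pairs, Wnt9b with Wnt3 at 24.3 kb and Wnt3a with Wnt9a at 16.2 kb, both on chromosome 11, are described with control 3.

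**Figure D2:**
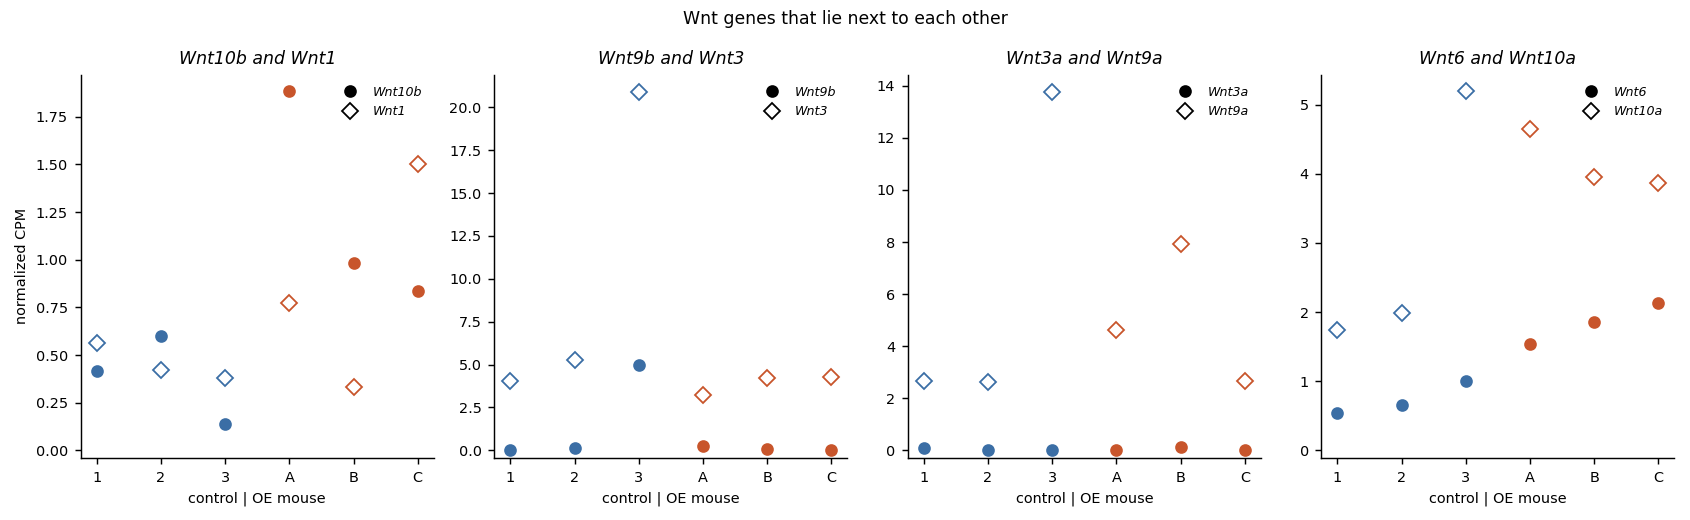
Normalized CPM (vertical axis) of the 4 pairs of Wnt genes within 100 kb of each other, in each mouse (control 1 to 3 in blue, OE A to C in orange). Filled circles are the first gene and open diamonds the second. Wnt6 is higher in all OE mice than in all controls while Wnt10a has its highest value in control 3, and Wnt3 and Wnt9b share their high value in control 3.

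By level per kilobase of exon, 2 ligands led. Wnt7b had 9.93 ± 1.89 and Wnt7a 9.68 ± 2.18 normalized CPM per kilobase (SD over 6 mice). Both are known for acting on the vessels of the brain and on synapses. Wnt7b exceeded Wnt7a in 4 of the 6 libraries and Wnt7a exceeded it in the other 2, so their order is not fixed. The next ligand, Wnt4 at 2.71, lay below Wnt7a in every library.

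Wnt7b (ENSMUSG00000022382) had 41.5, 46.1 and 40.7 normalized CPM in the controls and 60.05, 60.6 and 42.8 in OE. OE A and B lay above every control, and OE C lay among them. Its Log2FC was 0.35 ± 0.15 (adjusted P = 0.338), which did not pass, and a correction for GC content brought it to 0.11 (adjusted P = 0.791). Wnt7a (ENSMUSG00000030093) had 34.5, 22.8 and 21.8 normalized CPM in the controls and 38.8, 31.3 and 34.9 in OE. The groups overlapped through control 1. Its Log2FC was 0.41 ± 0.20 (edgeR adjusted P = 0.364). With GC correction it was 0.26, and without control 1 it was 0.65 and passed. DESeq2 placed both past the thresholds and limma-voom Wnt7a, and edgeR with all mice and its usual filter neither. Wnt7b also passed without OE C (0.51).

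The ligands described next did not pass in edgeR with all mice. Wnt2, 2.31 normalized CPM per kilobase, had 6.46, 0.582 and 1.38 normalized CPM in the controls and 13.5, 6.08 and 3.199 in OE (Log2FC = 1.44 ± 0.89, edgeR adjusted P = 0.4601). It was highest in OE A, then in control 1, and lowest in control 2, which are also the highest, the second and the lowest library for the striatum markers. Wnt5a, the best known ligand acting without β-catenin, was steady, with 12.9, 16.5 and 13.8 in the controls and 13.1, 13.8 and 17.4 in OE (Log2FC = 0.034 ± 0.16). Wnt2b and Wnt5b had a Log2FC of -0.35 ± 0.34 and 0.18 ± 0.28, and in both genes the groups overlapped. Over the 15 ligands tested, 9 had a positive and 6 a negative Log2FC, with a median of 0.18, beside -0.014 over all genes. Without control 3, 10 were positive and 5 negative with a median of 0.30, and without OE B the median was 0.081.

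The 4 remaining ligands were not tested. Wnt3a had 3, 0 and 0 raw counts in the controls and 0, 8 and 0 in OE. Wnt8a had 4, 0 and 9 and 5, 0 and 0, and Wnt16 had 0, 8 and 0 and 0, 0 and 23. These 3 ligands had at most 23 counts in any library and no count in at least 3 of the 6. Wnt9b had 0, 8 and 248 in the controls and 15, 4 and 0 in OE, almost all of it in control 3.

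**Figure D3:**
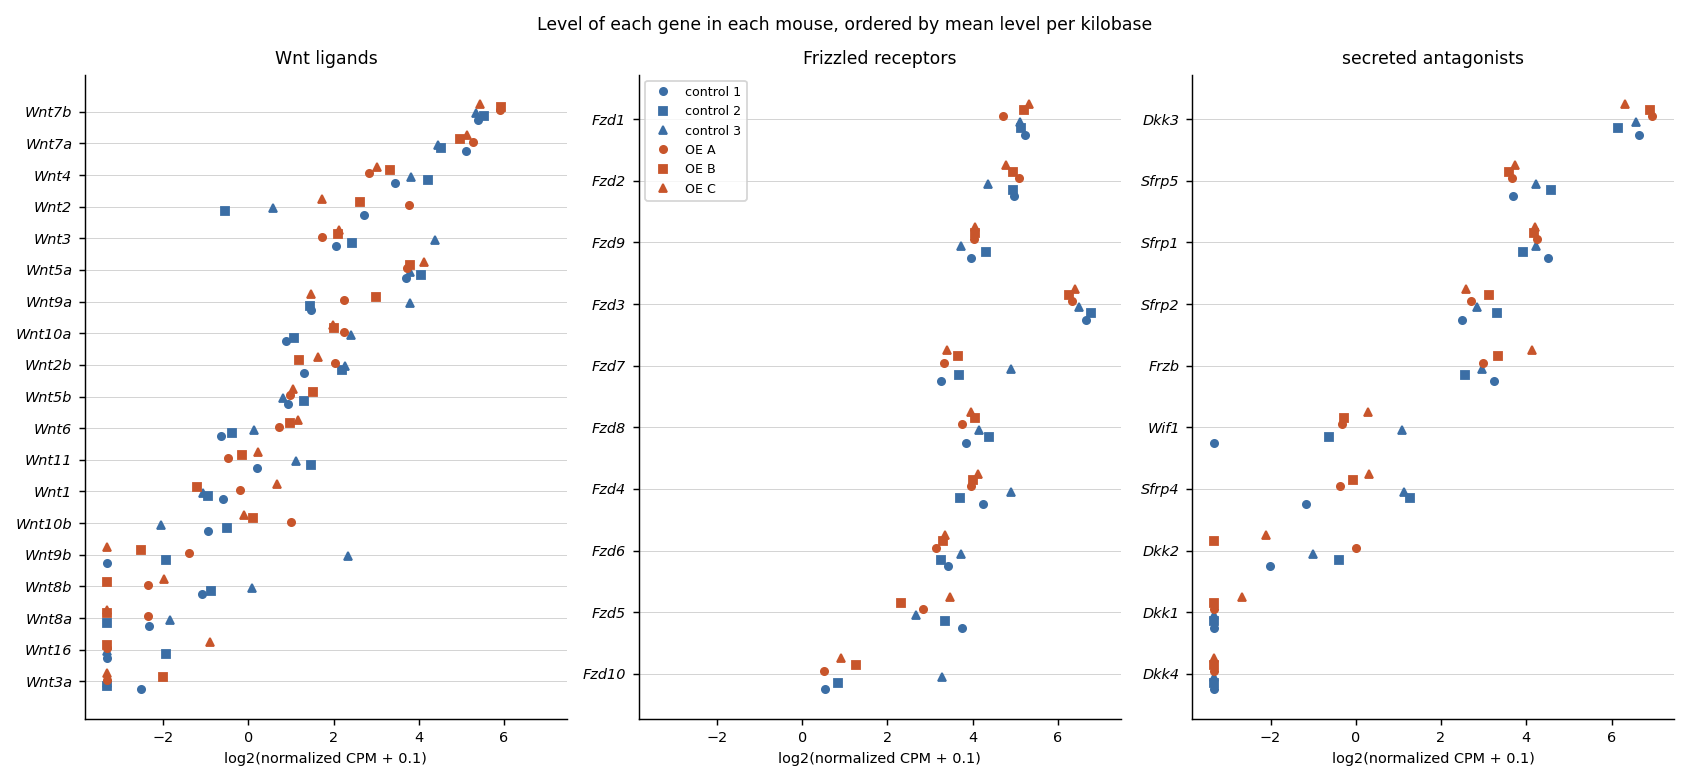
Level of each of the 39 genes in each mouse, as log2 of normalized CPM + 0.1 (horizontal axis), by class and ordered by mean level per kilobase. Blue symbols are control 1 to 3 and orange symbols OE A to C, and a gene with no count sits at the left edge. Wnt7a, Wnt7b, Fzd3 and Dkk3 are high in every mouse, and the blue triangles of control 3 stand to the right for Wnt3, Wnt9a, Wnt9b, Fzd7 and Fzd10.

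Control 3 was the highest library for 10 of the 33 genes tested (30.3%), beside 21.9% of all genes tested. For 7 of the 33 (21.2%) it was over 1.5 times every other library, beside 3.75% of all genes. These 7 were Wnt3, Wnt8b, Wnt9a, Fzd4, Fzd7, Fzd10 and Wif1, and they were named for this after their values were seen. Wnt3, a β-catenin ligand, had 4.03, 5.26 and 20.9 normalized CPM in the controls and 3.22, 4.23 and 4.27 in OE. Wnt9a had 2.68, 2.61 and 13.7 in the controls and 4.63, 7.92 and 2.67 in OE, with control 3 followed by OE B and OE A, the 3 libraries in which the cortical marker Neurod6 was also highest (23.01, 19.9 and 12.4 normalized CPM).

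Without control 3 several of these differences shrank or turned. The Log2FC went from -1.36 to -0.24 for Wnt3. It went from -1.22 to 0.25 for Fzd10 and from -0.65 to -0.00061 for Fzd7. For Fzd4 it went from -0.33 to 0.054, for Wnt9a from -0.32 to 0.95, and for Wif1 from -0.02 to 1.62. In edgeR none of these 6 passed with all mice or without control 3, though Wnt3, Fzd4 and Fzd7 passed in some of the other fits. In the fit without control 3, 4 genes of the family passed the thresholds, namely Wnt4, Wnt6, Wnt10a and Fzd3, beside 10.8% of all genes in that fit.

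**Figure D4:**
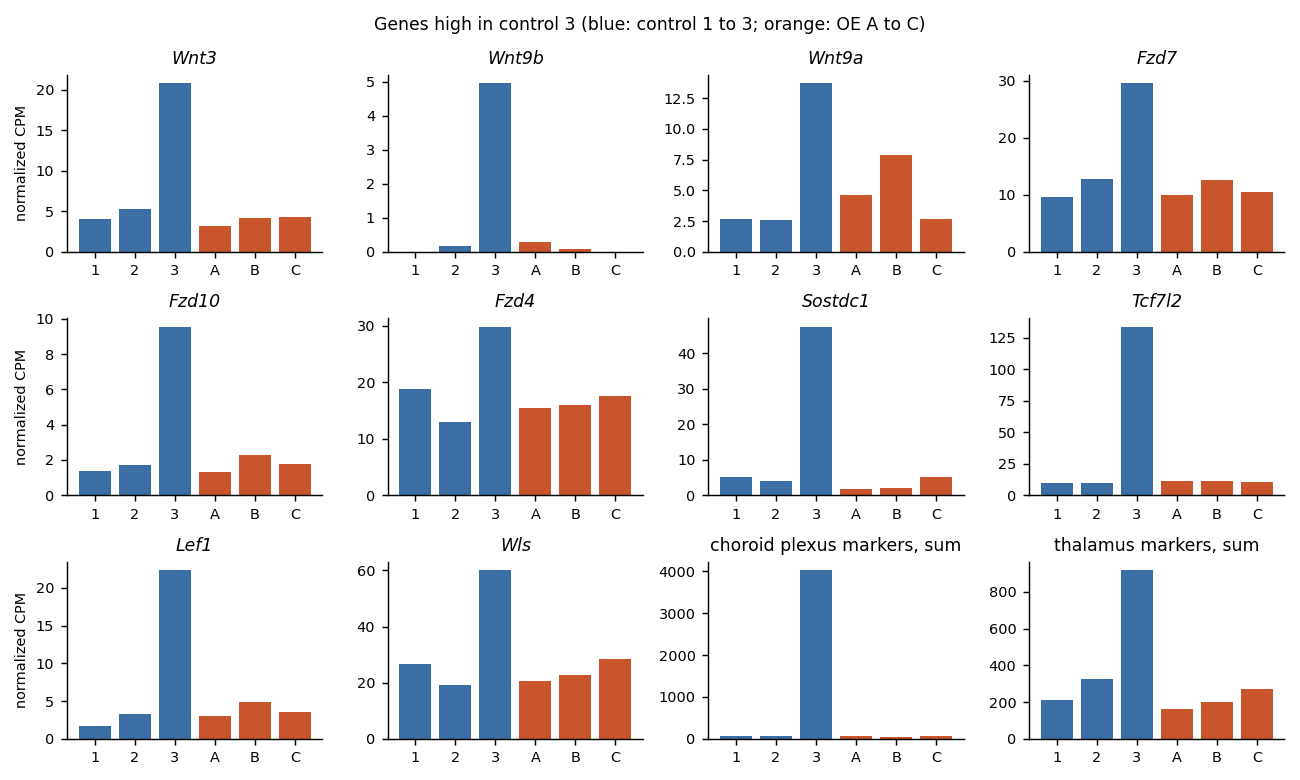
Normalized CPM (vertical axes, each from 0) of 6 family members and 4 other Wnt pathway genes in each mouse, with the summed level of the choroid plexus and of the thalamus markers. Blue bars are control 1 to 3 and orange bars OE A to C. The 12 panels were chosen after the values were seen, because control 3 is highest in them. Examples are 29.9 beside at most 18.8 for Fzd4 and 134 beside at most 11.2 for Tcf7l2.

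All 10 Frizzled receptors were tested, and 0 passed both thresholds in edgeR, beside 12.2% of all genes. An unadjusted P under 0.05 was found for 1 (Fzd3), beside 3304 of all 21844 genes. With 10 genes, these counts cannot be told from those shares. By level per kilobase, Fzd1 (8.33 ± 1.12), Fzd2 (7.92 ± 1.29), Fzd9 (7.13 ± 0.941) and Fzd3 (7.09 ± 1.00) formed a leading group whose order changed between libraries (normalized CPM per kilobase, SD over 6 mice). Fzd3 lay above the next receptor, Fzd7, in every library. Below them, Fzd7, Fzd8, Fzd4 and Fzd6 had means between 2.15 and 3.12 per kilobase, and Fzd5 and Fzd10 were lowest at 1.27 and 0.924.

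Fzd3 (ENSMUSG00000007989, chr14:65192449-65262463), which guides the large axon tracts of the forebrain, had 101, 111 and 90.9 normalized CPM in the controls and 80.5, 76.8 and 85.2 in OE. Every OE library lay below every control. The Log2FC was -0.32 ± 0.10 (edgeR P = 0.0165, adjusted P = 0.295, exact permutation P = 0.1). Its longest transcript has 40.3% GC, and among all genes the median Log2FC ran from -0.30 in the tenth of lowest GC content to 0.22 in the tenth of highest. With a smooth correction for GC content the Log2FC of Fzd3 was -0.054 (adjusted P = 0.874).

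The other leading receptors gave values on both sides of 0. Fzd1 had 37.4, 34.9 and 34.5 normalized CPM in the controls and 26.2, 36.8 and 39.9 in OE, where only OE A was low (Log2FC = -0.052 ± 0.16). Fzd2 had 31.2, 30.6 and 20.4 and 33.8, 30.8 and 27.4, where only control 3 was low (0.16 ± 0.18). Fzd9, a receptor of the hippocampus, had 15.5, 19.9 and 13.2 and 16.3, 16.6 and 16.5 (0.025 ± 0.17). The adjusted P of these 3 lay between 0.694 and 0.954. Their OE and control ranges overlapped in every case.

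Among the less abundant receptors, Fzd4, which also binds Norrin in vessels, had 18.8, 12.9 and 29.9 normalized CPM in the controls and 15.5, 15.9 and 17.5 in OE. Fzd7 had 9.53, 12.7 and 29.6 and 10.02, 12.5 and 10.5, and Fzd10 had 1.35, 1.71 and 9.56 and 1.32, 2.299 and 1.79 (Fzd10 Log2FC = -1.22 ± 0.74, edgeR adjusted P = 0.454). In all 3, control 3 was over 1.5 times every other library. Fzd5, Fzd6 and Fzd8 had a Log2FC of -0.37 ± 0.36, -0.22 ± 0.17 and -0.22 ± 0.17. Of the 10 receptors, 8 had a negative Log2FC, beside 51.5% of all genes, and the median was -0.27. Without control 3, 7 were negative and the median was -0.063.

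Of the 10 secreted antagonists, Dkk3 had the highest level per kilobase in all 6 libraries (29.3 ± 6.31 normalized CPM per kilobase, SD over 6 mice), above every ligand and receptor by its mean. Dkk3 is the divergent member of the Dickkopf family and does not act on Lrp6 as Dkk1 does. It had 99.7, 71.3 and 95.5 normalized CPM in the controls and 125, 120 and 79.5 in OE. OE A and B lay above the controls and OE C below control 3, and the Log2FC of 0.28 ± 0.20 did not pass (edgeR adjusted P = 0.523). With 1 mouse left out it ran from 0.16 (without control 2) to 0.47 (without OE C), where it passed. The antagonist next in level was Sfrp5, below Dkk3 and above Sfrp1 in all 6 libraries.

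Sfrp5 (ENSMUSG00000018822, chr19:42197971-42202252), a secreted decoy that binds Wnt ligands, was the only antagonist past the thresholds in edgeR. This is 12.5% of the 8 antagonists tested, beside 12.2% of all genes. It had 12.7, 23.7 and 18.7 normalized CPM in the controls and 12.6, 11.97 and 13.2 in OE. Controls 2 and 3 lay above every OE library, and control 1 lay among them. The means were 18.4 ± 5.48 and 12.6 ± 0.592 (SD, n = 3 each). Sfrp5 fell by a Log2FC of -0.55 ± 0.22 (edgeR P = 0.0423, adjusted P = 0.319, exact permutation P = 0.2). Without control 2 the Log2FC was -0.31 and without control 3 -0.52 (adjusted P = 0.4302), and neither passed. The 4 ependyma markers were highest in control 3 and next in control 2, with sums of 58.6, 84.5 and 109 normalized CPM in the controls and 37.2, 55.6 and 69.3 in OE. The summed hypothalamus markers were highest in control 2 (608), as Sfrp5 was, and next in control 3 (76.4). The part of either list in the Sfrp5 values was not tested.

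Frzb, also called secreted Frizzled-related protein 3, had 9.33, 5.78 and 7.74 normalized CPM in the controls and 7.86, 10.05 and 17.5 in OE. OE B lay just above the controls and OE C well above them (Log2FC = 0.63 ± 0.32, edgeR adjusted P = 0.392), and without OE C the Log2FC was 0.25. It passed without OE A (0.86) and in DESeq2. Sfrp1, which binds several Wnt ligands, had 22.6, 15.01 and 18.6 and 19.03, 18.1 and 18.5. Its Log2FC of -0.016 ± 0.16 is close to 0 (edgeR adjusted P = 0.9699). Sfrp2 and Sfrp4 had a Log2FC of -0.097 ± 0.26 and -0.84 ± 0.65.

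The other Dickkopf genes and Wif1 had few counts, as did Wnt8b and Wnt10b among the called genes. Wif1 had 0, 27 and 101 raw counts in the controls and 37, 39 and 59 in OE, and its Log2FC of -0.02 ± 1.15 has a wide error. Dkk2 had 6, 33 and 20 and 48, 0 and 7 (-0.23 ± 1.30). Dkk1, the classical Lrp6 antagonist, had 0, 0 and 0 raw counts in the controls and 0, 0 and 3 in OE, and Dkk4 had no count in any library. Both were left untested, and at this depth their level could not be told from 0.

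Levels per kilobase were also summed over each class, as a description with no test. The ligands summed to 31.5, 30.2 and 38.3 normalized CPM per kilobase in the controls and to 41.7, 37.5 and 32.7 in OE, with overlapping groups. Wnt7a and Wnt7b together made up 61.4%, 55.1% and 39.6% of it in the controls and 58.8%, 59.3% and 60.3% in OE. The low share was that of control 3.
The receptors summed to 43.9, 46.2 and 47.2 in the controls and to 38.9, 41.8 and 42.6 in OE, so that every OE library lay below every control, with control 1 and OE C close together. Of all single genes tested, 22.4% had groups that did not overlap. The sum includes Fzd3, at a Log2FC of -0.054 with GC correction, and Fzd4, Fzd7 and Fzd10, which were high in control 3. Fzd1, Fzd2, Fzd3 and Fzd9 together held 72.4% to 74.3% of it in 5 libraries and 56.4% in control 3. The antagonists summed to 47.1, 44.5 and 49.6 in the controls and to 54.2, 53.8 and 43.8 in OE. Dkk3 alone made up between 47.8% and 68.5% of that sum.

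Counted by whether the groups overlapped, 5 of the 33 genes (15.2%) had all OE libraries on one side of all controls, beside 22.4% of all genes tested. Wnt6 and Wnt10b lay higher, and Wnt4, Wnt8b and Fzd3 lower, of which Wnt8b was tested only through its counts in the controls. The controls spread more than the OE libraries in 23 of the 33 genes (69.7%, by the SD of log2 CPM), beside 58.3% of all genes. With 3 mice in each group, the exact two-sided permutation test of a single gene cannot give a P below 0.1.

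**Figure D5:**
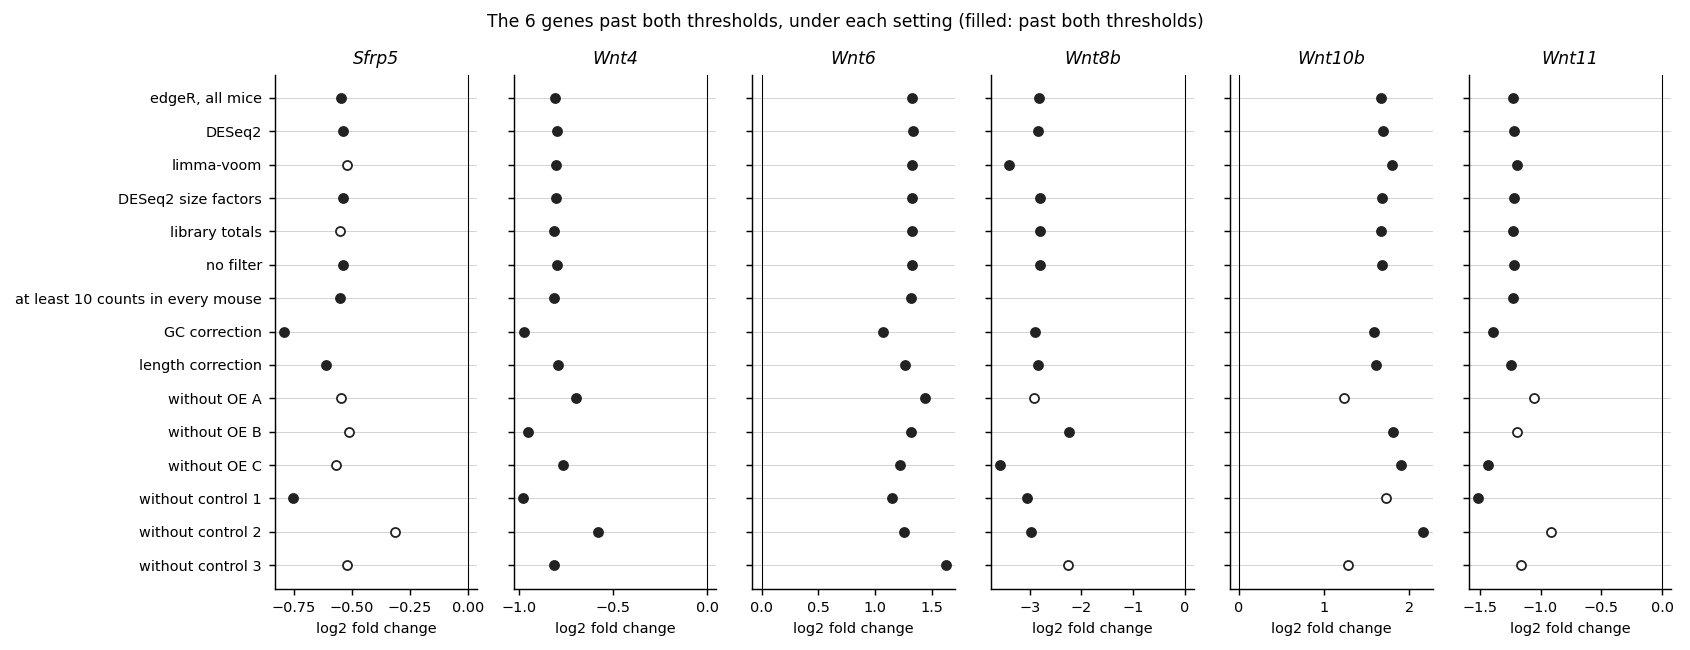
Log2 fold change (horizontal axes) of the 6 called genes in edgeR with all mice and under each of 14 other settings (vertical axis). Filled points are past both thresholds. Wnt4 and Wnt6 are filled throughout, while the other 4 open in several fits that leave out 1 mouse, and Wnt8b and Wnt10b have no point where at least 10 counts were required in every mouse.

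The calls differed in how far they rested on single mice. Wnt8b passed in 12 of 14 fits and failed also without OE A (-2.92). As Wnt8b met the usual count filter only through the controls, these passes are no support for a fall. Wnt10b passed in 11 of 14 and Wnt11 in 11 of 15, the latter failing also without OE A (-1.05) and without OE B (-1.20). Sfrp5 passed in 8 of 15 and failed also without OE A, B or C, where its Log2FC was -0.55, -0.51 and -0.57. Sfrp5 also failed in limma-voom and when the counts were scaled by library totals alone. All 6 kept their direction in every fit that gave a value, and the adjusted P of Wnt6 ranged from 0.0991 to 0.661 and that of Wnt4 from 0.0628 to 0.661 across them.

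Beside those already given, some genes of the family other than these 6 passed in a few fits. Wnt1 passed without OE B, and Wnt2, Wnt7a, Wnt9b, Fzd7 and Sfrp4 without control 1. Wnt3 passed in DESeq2, with GC correction and without control 1 or 2, and Fzd4 without control 2. Fzd3 passed without OE C, without control 3 and where 10 counts were required in every mouse, and Wnt7b also with no filter.

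Beyond the ligands, receptors and secreted antagonists, 78 other genes of the pathway were read from lists of co-receptors, secretion factors, the R-spondin axis, further extracellular inhibitors, cytoplasmic transducers, planar polarity genes, nuclear mediators and target genes. Of these, 75 were tested and 7 passed (9.33%, beside 12.2% of all genes), 4 higher and 3 lower in OE. The groups did not overlap in 12 of the 75 (16%, beside 22.4%). By list, 2 of 8 co-receptors, 3 of 8 further inhibitors, 2 of 13 nuclear mediators and 1 of 13 target genes passed, and none of 2 secretion factors, 9 genes of the R-spondin axis, 20 transducers or 11 polarity genes did. Some genes stand on more than 1 list.

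On the receiving side, Ror2, a receptor for Wnt5a that acts without β-catenin, fell. It had 1.204, 1.91 and 2.501 normalized CPM in the controls and 0.772, 0.779 and 0.743 in OE, with no overlap (Log2FC = -1.29 ± 0.35, edgeR P = 0.00724, adjusted P = 0.295, exact permutation P = 0.1), and passed in all 15 fits. Adgra2, also called Gpr124, which with Reck makes brain vessels respond to Wnt7a and Wnt7b, rose from 11.1, 11.8 and 9.98 in the controls to 17.4, 12.9 and 14.7 in OE (0.46 ± 0.15, edgeR adjusted P = 0.295). With the GC correction it was at 0.23, without OE A at 0.34 and without control 3 at 0.41, and did not pass in these fits. The 5 endothelial markers summed to 73.2, 77.1 and 89.7 normalized CPM in the controls and 94.1, 126 and 89.4 in OE. Their part in the Adgra2 values was not tested. Of these 5, 2 passed, beside 12.2% of all genes. Among markers tested, 5 of 7 for choroid plexus, 4 of 7 for thalamus, 4 of 7 for hypothalamus and 0 of 8 for striatum passed. Its partner Reck had 7.69, 7.93 and 10.5 and 11.0, 8.32 and 6.34 (-0.028 ± 0.24).

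Among the further inhibitors, Apcdd1, a membrane protein that binds Wnt ligands and is itself a Wnt target, rose. It had 20.9, 22.2 and 25.6 normalized CPM in the controls and 30.4, 35.8 and 36.01 in OE, with every OE library above every control (Log2FC = 0.57 ± 0.13, edgeR P = 0.00252, adjusted P = 0.295, exact permutation P = 0.1). Apcdd1 passed in all 15 fits, and its adjusted P in DESeq2 was 0.0313, the one value under 0.05 among the 27 genes given in full. Dkkl1, a relative of Dkk3, rose from 0.418, 0.361 and 0.16 to 1.56, 1.63 and 1.03 (2.17 ± 0.47, edgeR adjusted P = 0.295). Its raw counts were 17, 18 and 8 in the controls and 83, 88 and 54 in OE. The low control counts may stand for few read pairs. Dkkl1 passed in 14 of 14 fits and was left out where at least 10 counts were required in every mouse. Sostdc1, an antagonist of BMP and Wnt signalling, had 5.21, 3.89 and 47.5 in the controls and 1.83, 2.002 and 5.14 in OE (-2.66 ± 1.01, edgeR adjusted P = 0.309), and without control 3 its Log2FC was -0.59 (adjusted P = 0.607). It failed also without OE A (-2.40), without OE B (-2.43) and in limma-voom (-1.94).

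Inside the cell, 2 partners of β-catenin moved in opposite directions. Bcl9l rose, with 45.5, 42.1 and 51.9 normalized CPM in the controls and 59.4, 55.4 and 67.5 in OE (Log2FC = 0.39 ± 0.12, edgeR adjusted P = 0.295). Pygo1 fell, with 47.6, 59.9 and 57.3 and 40.8, 41.8 and 48.3 (-0.33 ± 0.12, edgeR adjusted P = 0.308). With the GC correction neither passed, at 0.15 and -0.17. Bcl9l also failed without OE C (0.32), and Pygo1 with length correction (-0.22), with library totals (-0.33) and without OE A, OE B, control 2 or control 3, at -0.42 to -0.26 over all fits that leave out 1 mouse. Ctnnb1, which encodes β-catenin, had a Log2FC of -0.12 ± 0.096 (edgeR adjusted P = 0.563).

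The smallest P in the lists without a call belonged to Porcn, the enzyme that attaches the lipid to Wnt proteins, to Rspo2, a secreted enhancer of Wnt signalling, to the kinase Gsk3a and to the polarity gene Daam1. Their Log2FC was 0.34 ± 0.16, 0.91 ± 0.47, 0.37 ± 0.16 and -0.28 ± 0.14, with an adjusted P of 0.351, 0.391, 0.3305 and 0.391. Rspo2 was at 0.33 without OE B, Daam1 at -0.16 without control 3 and Gsk3a at 0.12 with GC correction. Over the 15 fits, Gsk3a passed in 6, DESeq2 among them, Porcn in 3, Daam1 in 2 and Rspo2 in 1. Wls, which carries Wnt proteins to the cell surface, had 26.7, 19.3 and 60.2 normalized CPM in the controls and 20.7, 22.7 and 28.6 in OE, again high in control 3.

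Of the 13 target genes, 9 had a positive and 4 a negative Log2FC (median 0.20), beside 48.5% positive over all genes. Leaving out 1 mouse gave 7 (without OE C, median 0.010) to 12 positive (without control 3, median 0.33). Axin2, the usual readout of β-catenin signalling, had 31.0, 27.97 and 34.5 normalized CPM in the controls and 25.2, 27.7 and 30.9 in OE (Log2FC = -0.16 ± 0.13, edgeR adjusted P = 0.575). The groups overlapped. Apcdd1 was the 1 gene of the 13 targets past the thresholds. Tcf7l2, a TCF factor abundant in the thalamus, had 9.75, 9.79 and 134 in the controls and 11.2, 10.9 and 10.7 in OE, and Lef1 had 1.65, 3.23 and 22.4 and 3.03, 4.89 and 3.54. In both, control 3 lay far above the other 5 libraries.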

How the data were processed

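RNA-seq libraries of the brains of 3 control and 3 AP1AR-DT OE mice were used. According to the study's methods, the authors mapped read pairs to GRCm38 with Bowtie2 and took coverage with StringTie and GENCODE genes. The deposited counts are whole numbers without normalization, which by those methods StringTie's script made from coverage. The submitters' processing notes name other tools (TopHat2 2.0.4, HTSeq, Cuffdiff, edgeR 2.6.12) and mm9, and which applied to the table could not be settled. Bowtie2 does not split reads at introns. Columns of the authors' own DESeq2 comparison (mean, Log2FC, SE, statistic and P values) were not used, and 0 columns of samples stayed unmapped. The control columns carry the mouse number of the labels; the OE columns name the group only. The lowest chi-square between any 2 libraries was 35.7 per gene, so none is a copy of another.

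Over all genes, edgeR 4.0.16 in R 4.3.3 was run with filterByExpr, TMM factors and the two-sided quasi-likelihood F-test, leaving 21844 genes, with Benjamini-Hochberg adjustment over them. The common biological coefficient of variation was 0.313. Called genes have P under 0.05 and an absolute Log2FC above 0.32. The SE is the absolute Log2FC divided by the square root of F. Normalized CPM use the TMM factors, and levels between genes are per kilobase of the union of exons in GENCODE vM21 on GRCm38, which holds 52133 of the 52390 identifiers. Alternatives were DESeq2 1.42.0, limma-voom 3.58.1, other scalings and count filters, splines (5 degrees of freedom, over 13989 genes) on GC content or length, and leaving out each mouse. The fits were tested on simulated data.

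Full statistics are given for each called gene and, in each class, for the 3 tested genes of highest level per kilobase and the 2 of smallest P. In the pathway lists they are given for each called gene and the smallest P of each list. The members and lists were chosen with earlier results of these data known. The P values measure the spread between these mice, whose independence beyond the mouse numbers is not stated. Coordinates printed are GRCm38 and 1-based.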

Additional observations from a re-analysis of the deposited data

How the results depend on the processing

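Of 6 ligand, receptor and antagonist genes past the thresholds in edgeR, DESeq2 gave 10 (beside 9.70% of all genes), and leaving out 1 mouse gave 3 (without OE A, beside 7.19%) to 11 (without control 1, beside 14.98%), with 4 without control 3 (beside 10.8%). Of the other 7 pathway genes, DESeq2 gave 11, and leaving out 1 mouse gave 4 (without OE A) to 17 (without OE C, beside 15.6% of all genes), with 14 without control 1. No gene of the family passed at an adjusted P under 0.05 in any of the 15 fits. The groups did not overlap in 5 genes, in 3 where at least 10 counts in every mouse were required (beside 23.9% of all genes), and in 7 to 15 with 1 mouse left out (beside 27.6% to 39.5%), where fewer mice make this easier. Over the 27 genes given in full and 14 settings, 374 comparisons gave 305 of the same direction and on the same side of the P threshold, 21 that newly passed it, 36 that lost it and 12 that turned. Those that turned, none of them called, were Fzd2 (-0.015 with GC correction), Fzd9 (-0.26 with GC and -0.036 with length correction) and Sfrp1 (0.014 in limma-voom and 0.0064 with length correction). The others turned with 1 mouse left out, where the Log2FC ran from -0.16 to 0.11 for Fzd1 (turned without OE A), from -0.089 to 0.21 for Fzd9 (without control 1 or 3), from -1.64 to 0.25 for Fzd10 (without control 3) and from -0.14 to 0.14 for Sfrp1 (without OE B, OE C or control 1). Except where a count filter removes genes, the causes were not tested. Genes of few counts, such as Wnt8b, Wnt10b, Wif1, Dkk2 and Dkkl1, are limited by depth. No paired analysis was possible because the labels of the groups share only the number 3 and the OE columns carry no mouse number.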

Other observations

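Pygo2, a nuclear partner of β-catenin on the pathway lists, had 60.5, 1.57 and 1.26 normalized CPM in control 1, 2 and 3 and 2.41, 1.71 and 71.6 in OE A, B and C. It was thus high in 1 mouse of each group and at most 2.41 in the others (Log2FC = 0.26 ± 1.79), and was singled out after its values were seen. Lgr5, an R-spondin receptor and Wnt target, had 1.77, 2.61 and 2.14 in the controls and 2.69, 1.33 and 9.62 in OE, with OE C alone high, and the Lgr5 groups overlapped.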
